A study of Mus musculus with 15 samples.

Results

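The first passage of Emcn- bone marrow endothelial cell (BMEC) cultures was measured by bulk RNA-seq in 4 of the 15 libraries of the series, 2 of P1 Emcn- cells and 2 of P0 Emcn- cells. Genes were kept if their symbol was not a predicted gene, a pseudogene or a RIKEN clone (names that start with Gm and a number, hold -ps or end in Rik) and if they reached 5 CPM (counts of a gene scaled to a library total of 1e6) in both libraries of at least one side. These criteria kept 10495 of the 44674 genes in the table. Of these, 9660 reached 5 CPM on both sides, 402 only at P0 and 433 only at P1. At the edge of this threshold, Jmjd7 was kept with 5.01 and 5.65 CPM at P0, and Qprt was left out with 10.6 and 4.99 CPM at P1.

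P0 cells came from whole bone marrow (WBM) grown in EGM-2, an endothelial growth medium, from Tie2-CreERT2;Rosa26-tdTomato mice of either sex, 4 to 6 months old. In these mice the Tie2 (Tek) promoter drives a tamoxifen-inducible Cre, which switches on the red reporter tdTomato. At day 14 the tdTomato+ CD45- cells without surface Endomucin (Emcn) were sorted from dishes that also held macrophages and mesenchymal cells. By the protocol, P1 cells come from the next plating, grown to confluence over 1 to 2 weeks. The labels do not link the P1 libraries to the cultures sampled at P0, and genes of the Y chromosome differed between the sides (given below). The labels give every library the genotype WT and do not say whether the P1 dish was seeded with sorted cells or with the whole culture.

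The MSC and Lung libraries, 2 of each, were read beside this comparison. MSC were tdTomato+ mesenchymal stromal cells cultured from Osx-Cre;Rosa26-tdTomato bone marrow, in which the Cre is driven by a promoter of bone-forming cells, and Lung libraries came from Emcn- cells of lung cultures in EGM-2. The labels place P0 Emcn- replicate 1 and Lung replicate 1 in batch d, P0 Emcn- replicate 2 and Lung replicate 2 in batch a, P1 replicate 1 in batch b, and P1 replicate 2 with both MSC libraries in batch c. No batch held both P0 and P1, so passage and batch cannot be told apart within the comparison. MSC over Lung crosses batches in the same direction in part. Both Lung libraries share a batch with a P0 library and both MSC libraries share one with P1 replicate 2. Batch b, which holds P1 replicate 1, has no MSC or Lung library. MSC and Lung also differ in cell type, tissue and medium. The study's methods put the first batch of bulk replicates on a different sequencer model from the later ones. They do not tie this to batches a to d, and the part of the sequencer in the results was not tested.

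Library totals were 39718807 counts in P0 replicate 1 and 9914620 in P0 replicate 2. They were 33618854 in P1 replicate 1, 27878801 in P1 replicate 2, and 21688654 to 36214724 in MSC and Lung. A count of 3 therefore stood for 0.0755 to 0.303 CPM. The study describes its bulk RNA-seq replicates as independent biological samples, while the labels do not tie libraries to mice. P0 replicates were less alike than P1 replicates. Among the genes at 5 CPM on both sides, 709 (7.34%) differed over 2-fold between the P0 libraries and 49 (0.507%) between the P1 libraries.

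The labelled cell type was checked against its markers. Emcn was at 12.7 and 2.52 CPM at P0 and at 2.35 and 1.47 CPM at P1, against 631 and 798 CPM in the sorted P0 Emcn+ libraries. Cdh5, the VE-cadherin of endothelial junctions, was at 119 and 6.35 CPM in P0 Emcn- cells and at 1.13 and 2.33 CPM at P1, against 5118 to 6222 CPM in Emcn+ cells. The summed level of 22 endothelial genes was 519 and 304 CPM at P0 and 256 and 245 CPM at P1, against 17062 and 14784 CPM in Emcn+ cells. Pdgfra, a receptor of stromal cells, stood at 1147 and 1566 CPM at P0 and at 1472 and 1319 CPM at P1. The summed level of 16 stromal genes was 5825 and 5680 CPM at P0 and 4624 and 4684 CPM at P1. It was 1286 and 2179 CPM in Emcn+ cells and 3530 and 7713 CPM in MSC. By these markers, both sides of the comparison were low in endothelial transcripts and high in stromal ones, and they are named below by passage and sort only. The summed level of 16 macrophage genes was 358 and 411 CPM at P0 and 108 and 318 CPM at P1, with the leukocyte antigen Ptprc between 0.892 and 3.75 CPM in these 4 libraries. Its part in the results was not tested.

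Notch receptors are cut after binding a Jagged or Delta ligand on a neighbouring cell, and the freed intracellular part joins Rbpj on DNA to switch on the repressors of the Hes and Hey families. In vessels this signal separates arterial from venous endothelium and is needed for the mural cells that wrap them, where Notch3 is the main receptor. Collagens type I and III, the fibrillar collagens of connective tissue, are made by fibroblasts, mural cells and stromal cells. Immediate early genes such as Fos and Egr1 are transcribed within minutes of serum, stretch or handling.

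Of the 10495 genes kept, 184 were higher and 250 lower at P1, by edgeR's quasi-likelihood test at an adjusted p under 0.05 with a log2 fold change over 1.5 in size. This was 1.75% and 2.38% of the genes kept, against 5.77% (1120) and 3.07% (595) of all 19401 genes tested. In MSC over Lung, 3.66% (384) and 6.54% (686) of the genes kept were called higher and lower. Many called genes reached 5 CPM only on the side where they were high. Among the 9660 genes at 5 CPM on both sides, 81 (0.839%) were higher and 147 (1.52%) lower. The median log2 fold change at P1 was -0.01 over the genes kept and 0.02 over all genes tested. The counts moved with single libraries. Without P0 replicate 1 there were 130 higher and 138 lower, without P0 replicate 2 there were 356 and 399, without P1 replicate 1 there were 114 and 96, and without P1 replicate 2 there were 133 and 133. In bulk RNA, fewer cells of a type and less RNA per cell cannot be told apart.

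Notch pathway genes with lower levels at P1 included a receptor and 3 targets. Hes1 (ENSMUSG00000022528, chr16:30064384-30067796, GRCm38), the repressor most directly induced by Notch, was at 115 and 37.6 CPM at P0 and at 1.19 and 2.01 CPM at P1. Both P1 libraries lay far below both P0 libraries, and the mean was 47.8-fold lower (log2 fold change -5.44 ± 0.64 SE, adjusted p = 0.00045, edgeR). In MSC over Lung its log2 fold change was 1.18 (adjusted p = 0.11), and the difference between both comparisons passed the test (adjusted p = 0.0011). Hes1 kept its call with each library left out and in each other setting. At later passages it was at 2.71 and 2.19 CPM (P2), 10.4 and 6.33 CPM (P3) and 11.9 CPM (P4).

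Heyl (ENSMUSG00000032744, chr4:123233556-123249875), a Notch target of mural cells, fell under the CPM threshold and is given by its counts. It had 11.7 and 4.24 CPM at P0 and 0.0297 and 0 CPM at P1, which was 507 counts against 1. The ratio per total counts was 628, with an exact 95% interval of 112 to 24861 that covers counting error only. Hey1, the related target, was likewise under the threshold, with 8.56 and 2.62 CPM at P0 and 0.238 and 0.215 CPM at P1 (log2 fold change -4.47, adjusted p = 0.022). Among genes under the threshold, Dll4, a Delta ligand of arterial endothelium, fell from 8.41 and 0.403 CPM to 0.0595 and 0.0359 CPM (adjusted p = 0.039), and Mfng, a fringe glycosyltransferase that tunes the receptors, fell from 2.57 and 0.504 CPM to 0.0595 and 0.0717 CPM (adjusted p = 0.035). The calls of Heyl, Hey1, Dll4 and Mfng were each lost without P0 replicate 1 and without either P1 library.

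Notch3 (ENSMUSG00000038146, chr17:32120820-32166852) was at 146 and 75.4 CPM at P0 and at 28.6 and 26.9 CPM at P1. The P1 libraries were close to each other and below both P0 libraries (log2 fold change -1.85 ± 0.30, adjusted p = 0.0036), and the call was lost without P0 replicate 1. It moved the other way in MSC over Lung (1.47, adjusted p = 0.0048). It stood at 53.2 and 46.6 CPM at P2, 73.3 and 63.0 CPM at P3 and 73.4 CPM at P4. The other receptors were not called. Notch1 was at 119 and 101 CPM at P0 and 45.6 and 50.8 CPM at P1 (-1.04, adjusted p = 0.007, short of the fold limit), and Notch2 was at 194 and 156 CPM at P0 and 166 and 174 CPM at P1 (0.12, adjusted p = 0.75). The sign of the Notch2 value turned with library totals in place of TMM factors and without P0 replicate 2. Notch4, the endothelial receptor, was at 23.9 and 6.96 CPM at P0 and 2.20 and 2.33 CPM at P1 (-2.65, adjusted p = 0.086).

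Jag1, the Jagged ligand of vessel walls, was at 93.8 and 122 CPM at P0 and at 49.8 and 50.5 CPM at P1 (-0.94, adjusted p = 0.048, short of the fold limit). Rbpj, the DNA-binding partner of the receptors, was at 113 and 330 CPM at P0 and at 371 and 393 CPM at P1 (0.95, adjusted p = 0.17). Of the 5 receptors and ligands kept, 1 was called lower, and of the 13 targets and pathway proteins kept, 1 was called lower and none higher. Among all 20 of the latter, 4 were called lower and 1 higher. The one called higher, Dtx1, a ubiquitin ligase of the pathway, was at 0.277 and 0 CPM at P0 and at 1.49 and 1.399 CPM at P1. The median log2 fold change of the 13 was 0.03, against -0.01 over all genes kept.

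**Figure D1:**
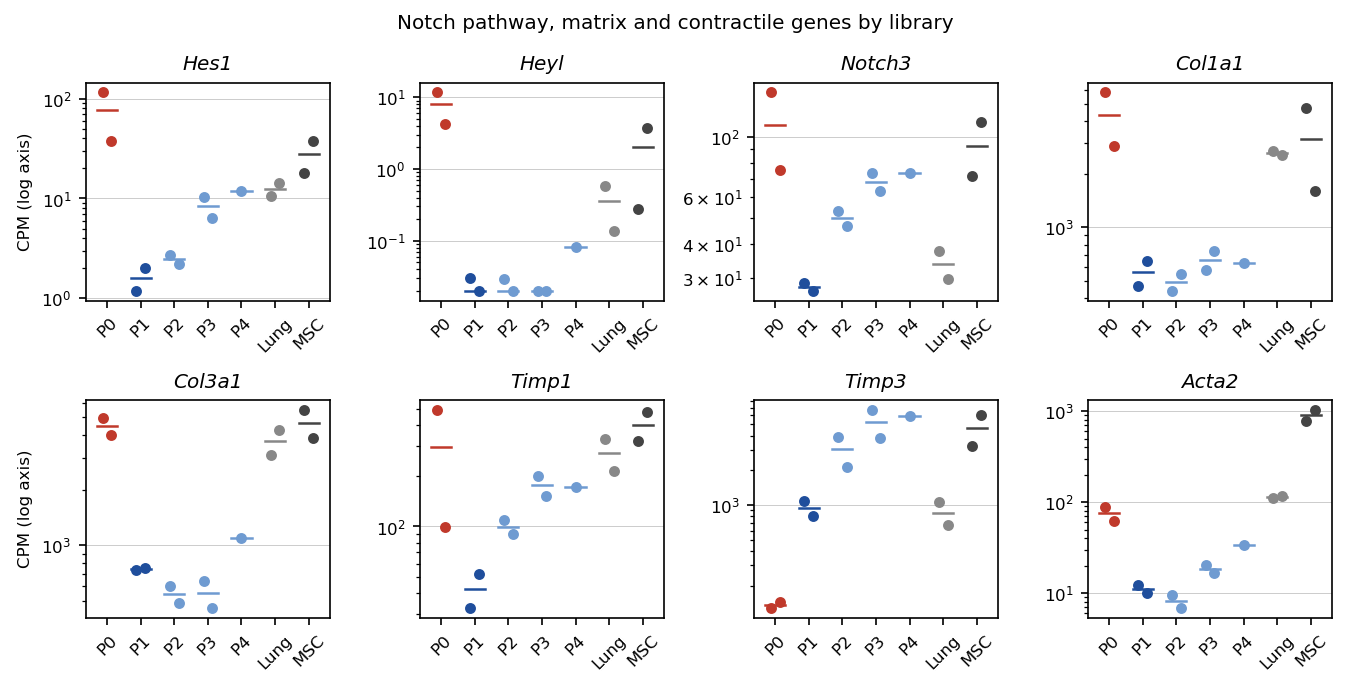
Levels of 8 Notch, matrix and contractile genes in single libraries (points) with group means (lines), in CPM on log axes, for P0 to P4 Emcn- cells, Lung and MSC. Values of 0 (Heyl) are drawn at 0.02 CPM. Hes1, Heyl, Notch3, Col1a1, Col3a1, Timp1 and Acta2 were lower in both P1 than in both P0 libraries, and Timp3 was higher in both.

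Fibrillar collagens were lower at P1. Col1a1 (ENSMUSG00000001506, chr11:94936224-94953042), the main chain of type I collagen, was at 5783 and 2891 CPM at P0 and at 469 and 647 CPM at P1. The mean was 7.77-fold lower (log2 fold change -2.81 ± 0.50, adjusted p = 0.0052), with 0.31 in MSC over Lung and a difference between comparisons that passed the test (adjusted p = 0.015). The call was lost without P1 replicate 1. Levels at P2 to P4 stayed between 439 and 739 CPM, below both P0 libraries.

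Col3a1, the chain of type III collagen, was at 4937 and 4005 CPM at P0 and at 736 and 755 CPM at P1 (-2.43 ± 0.33, adjusted p = 0.0012). Its call held with each library left out, as did those of Col5a2 (-2.14) and Col5a3 (-2.02), chains of the type V collagen that starts fibrils. Col1a2, the second chain of type I, was at 7053 and 4779 CPM at P0 and at 1468 and 1968 CPM at P1 (-1.63, adjusted p = 0.013). Col14a1 and Col15a1, collagens that bind fibrils and basement membranes, fell by 4.16 and 2.97 on the log2 scale. The calls of Col1a2, Col14a1 and Col15a1 were lost without P0 replicate 1 and without either P1 library. Of the 18 collagen genes kept, 7 were called lower and none higher, 17 had a fold change below 0, and their median was -1.33 against -0.01 over all genes kept. Without P0 replicate 1, P1 replicate 1 or P1 replicate 2 the number called lower was 4, and without P0 replicate 2 it was 10.

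The type IV collagens of the basement membrane were not called. Col4a1 was at 5281 and 4237 CPM at P0 and at 1858 and 1829 CPM at P1 (-1.21, adjusted p = 0.033), and Col4a2 had a log2 fold change of -1.47 (adjusted p = 0.0065), both short of the fold limit. These chains were lower in MSC over Lung too (-2.38 and -1.87). Col4a5, a chain of other basement membranes, went against the rest of the list, with 17.1 and 25.2 CPM at P0 and 35.7 and 43.8 CPM at P1 (1.07, adjusted p = 0.019).

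Of the enzymes that build or degrade matrix, some were lower and some higher. Loxl1, a lysyl oxidase that crosslinks elastic fibres, was at 765 and 482 CPM at P0 and at 116 and 119 CPM at P1 (-2.25 ± 0.32, adjusted p = 0.0014), but it was also lower in MSC over Lung (-2.12). Serpinh1, the collagen chaperone Hsp47, was at 1246 and 818 CPM at P0 and at 281 and 314 CPM at P1 (-1.64, adjusted p = 0.0032), with 0.41 in MSC over Lung. Its call was lost without P0 replicate 1. Mmp9, a gelatinase, was at 10.9 and 5.55 CPM at P0 and at 0.0297 and 0.0359 CPM at P1, 488 counts against 2, a ratio of 302 with an exact 95% interval of 83.2 to 2503.

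The tissue inhibitors of metalloproteinases went in opposite directions. Timp1 was at 495 and 99.5 CPM at P0 and at 32.5 and 51.9 CPM at P1 (-2.67 ± 0.61, adjusted p = 0.017). The P0 libraries lay far apart, and the call was lost without P0 replicate 1 and without either P1 library. Timp3, the inhibitor that stays bound to matrix, was at 128 and 145 CPM at P0 and at 1097 and 798 CPM at P1 (2.96 ± 0.46, adjusted p = 0.0025), and was at 2146 to 6683 CPM from P2 to P4. It was also higher in MSC over Lung (2.45). Timp2 was at 1084 and 1654 CPM at P0 and at 3727 and 3709 CPM at P1 (1.60, adjusted p = 0.0017), a call lost with library totals in place of TMM factors and without P0 replicate 1. Of the 23 matrix enzymes and inhibitors kept, 4 were lower and 2 higher.

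Other matrix proteins were mixed. Fn1, the fibronectin of the cell surface matrix and the most abundant gene of this group, was at 9966 and 13595 CPM at P0 and at 15992 and 17103 CPM at P1 (0.65, adjusted p = 0.20). Sparc, a collagen-binding protein, was at 2931 and 1840 CPM at P0 and at 748 and 919 CPM at P1 (-1.36, adjusted p = 0.024, short of the fold limit). Of the 27 kept, 4 were called lower (Fbn2, Fbln1, Ltbp2 and Mgp, between -1.79 and -2.19), none higher, and the median was -0.68. Without P0 replicate 1 or without either P1 library none was called. Mfap4, a microfibril protein under the CPM threshold, had 22.8 and 4.24 CPM at P0 and 0.654 and 0.646 CPM at P1.

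The contractile genes of mural cells were lower in part. Acta2, smooth muscle actin, was at 89.1 and 62.2 CPM at P0 and at 12.2 and 9.97 CPM at P1 (-2.61 ± 0.53, adjusted p = 0.0097). Tagln, an actin-binding protein of smooth muscle, was at 48.1 and 37.7 CPM at P0 and at 5.32 and 4.66 CPM at P1 (-2.95 ± 0.85, adjusted p = 0.040). Both were higher in MSC over Lung (3.02 and 2.32). They were the 2 called of 8 contractile genes kept, of which 3 had a fold change above 0 and 5 below, with a median of -0.96. Neither Acta2 nor Tagln was called without P0 replicate 1 or without either P1 library, nor was Tagln without P0 replicate 2. Mcam, an adhesion molecule of pericytes and endothelium, was at 26.6 and 8.17 CPM at P0 and at 0.952 and 0.825 CPM at P1 (-4.16, adjusted p = 0.014), and with Notch3 made up the 2 called of 6 pericyte genes kept. The call of Mcam was lost without P0 replicate 1 and without either P1 library. Pdgfrb, the receptor that holds pericytes to vessels, was at 1077 and 537 CPM at P0 and at 285 and 314 CPM at P1 (-1.27, adjusted p = 0.041, short of the fold limit).

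Targets of TGF-beta and YAP signalling, which respond to stretch and stiffness, were called lower in 3 of 18 genes kept and higher in none, with a median of -0.67. Ccn2, the connective tissue growth factor, was at 163 and 170 CPM at P0 and at 22.4 and 41.9 CPM at P1 (-2.22 ± 0.40, adjusted p = 0.0059). Ccn1, its relative, was at 386 and 1256 CPM at P0 and at 138 and 130 CPM at P1 (-2.46, adjusted p = 0.010). Skil, a feedback inhibitor of TGF-beta, fell by 1.68 on the log2 scale. All 3 calls were lost without P1 replicate 1, that of Ccn1 also without P0 replicate 2 or P1 replicate 2, and that of Skil also without P0 replicate 1 or P1 replicate 2. Ccn5, a relative of Ccn2 outside the list, was at 326 and 211 CPM at P0 and at 18.03 and 11.4 CPM at P1 (-4.03 ± 0.39, adjusted p = 0.00012), and was higher in MSC over Lung (3.75). Its call held with each library left out.

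Most immediate early genes kept were called lower. Of the 18 kept, 11 were called lower and none higher, with a median of -2.08 against -0.01 over all genes kept. The number called was 10 and 11 without P0 replicate 1 and P0 replicate 2, and 8 without either P1 library. In MSC over Lung 1 of the 18 was lower and 1 higher, with a median of -0.59. Fos, a subunit of the AP-1 factor, was at 239 and 278 CPM at P0 and at 2.23 and 3.66 CPM at P1 (-6.31 ± 0.58, adjusted p = 8.6e-05). It was lower in MSC over Lung as well (-2.23), and fell further at P1 (adjusted p of the difference = 0.0048).

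Fosb, another AP-1 subunit, was at 116 and 48.0 CPM at P0 and at 2.44 and 3.05 CPM at P1 (-4.76 ± 0.66, adjusted p = 0.0013). Junb, their partner, was at 227 and 418 CPM at P0 and at 22.5 and 21.9 CPM at P1 (-3.70, adjusted p = 0.0020). Egr1, a zinc finger factor induced by serum, was at 437 and 1039 CPM at P0 and at 48.1 and 44.5 CPM at P1 (-3.83, adjusted p = 0.0023). In each case the P1 libraries differed from each other by far less than they did from P0. Nr4a1, an orphan nuclear receptor, was at 48.4 and 125 CPM at P0 and at 4.61 and 5.67 CPM at P1 (-3.91, adjusted p = 0.0025). Atf3 and Dusp1, a stress factor and a phosphatase that ends MAP kinase signals, fell by 2.55 and 1.72 on the log2 scale. The calls of Fos, Fosb, Junb, Egr1, Nr4a1, Atf3 and Dusp1 held with each library left out. Not all of the list moved. Fosl2 (243 and 242 CPM at P0, 199.7 and 206 CPM at P1), Klf6 (197 and 251 CPM, then 293 and 264 CPM) and Myc (83.5 and 128 CPM, then 72.4 and 56.9 CPM) did not pass the test, and the sign of Klf4 (0.26) turned without P0 replicate 1.

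In the single P4 library the genes named next were above their P1 levels. Fos was at 4.87 and 4.18 CPM at P2, 5.28 and 4.18 CPM at P3 and 62.6 CPM at P4. Egr1 was at 529.9 CPM at P4, between both P0 values, after 15.97 and 16.6 CPM at P3. Junb, Nr4a1 and Ier2 were at 132, 31.2 and 64.1 CPM at P4. With 1 library at P4 there is no test of this rise.

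Serum response factor, which drives many immediate early genes, binds a motif called the CArG box. Of the 14 immediate early genes with a window in the RefSeq promoter table (250 bases before to 50 after the start site, GRCm38.p6), 1 held a CArG box on either strand, against 1.81% of all 27025 genes in the table, each counted if any of its windows held one. It was Egr2, a relative of Egr1, which was at 42.2 and 72.9 CPM at P0 and at 6.37 and 4.91 CPM at P1 (-3.18, adjusted p = 0.0052, lost without P1 replicate 2). Its window (chr10:67537316-67537615, plus strand) is shown with the motif in capitals, which starts 72 bases before the start site. A match describes the letters only.
Egr2: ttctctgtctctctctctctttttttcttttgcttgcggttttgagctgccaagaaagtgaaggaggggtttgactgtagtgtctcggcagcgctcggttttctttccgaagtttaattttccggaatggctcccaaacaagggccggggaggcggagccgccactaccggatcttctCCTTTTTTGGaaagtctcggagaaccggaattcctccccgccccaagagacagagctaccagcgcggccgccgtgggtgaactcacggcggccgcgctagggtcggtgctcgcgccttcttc

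**Figure D2:**
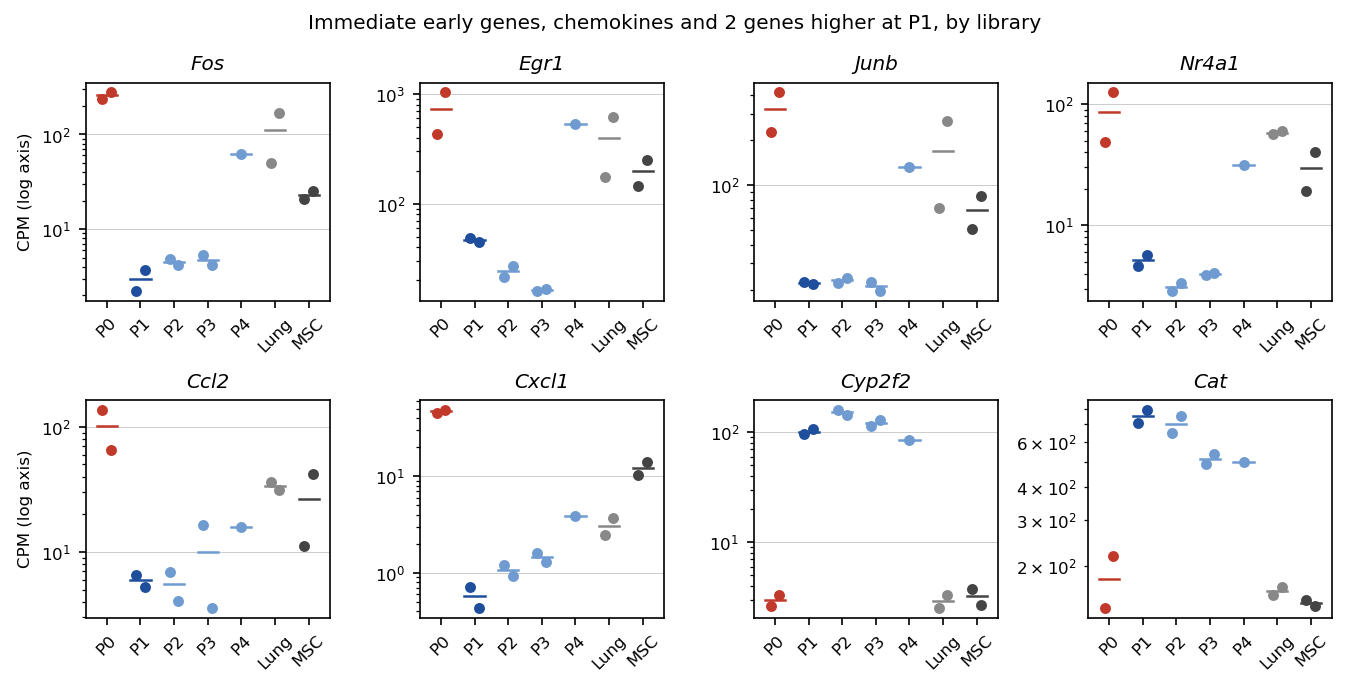
Levels of 4 immediate early genes, 2 chemokines and 2 genes higher at P1 in single libraries (points) with group means (lines), in CPM on log axes. Fos, Egr1, Junb, Nr4a1, Ccl2 and Cxcl1 were lower in both P1 libraries than in both P0 libraries, Cyp2f2 and Cat were higher, and the P4 library of Egr1 lies near the P0 libraries.

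Chemokines that draw neutrophils and monocytes were lower at P1. Cxcl1, a neutrophil chemokine, was at 45.7 and 48.8 CPM at P0 and at 0.714 and 0.430 CPM at P1, 2301 counts against 36 (-6.18 ± 0.53, adjusted p = 5.2e-05). It was higher in MSC over Lung (2.01). Cxcl14 was at 19.2 and 18.6 CPM at P0 and at 0.327 and 0.968 CPM at P1 (-4.74 ± 0.60, adjusted p = 0.00076). Ccl2, the monocyte chemokine, was at 136 and 64.9 CPM at P0 and at 6.60 and 5.27 CPM at P1 (-3.93 ± 0.82, adjusted p = 0.011), a call lost without P0 replicate 1 and without either P1 library. Ccl7 and Cxcl5 fell by 2.06 and 4.58 on the log2 scale, with calls lost without either P1 library (Cxcl5 also without P0 replicate 1). These 5 were the ones called of 13 chemokines and cytokines kept, with none higher. The number called without one library was 3 (P0 replicate 1), 5 (P0 replicate 2) and 2 (either P1 library).

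Of the niche factors, Cxcl12 and Kitl were not called, and the interleukin 6 family cytokines were lower. Cxcl12, which holds blood stem cells in marrow, was at 2541 and 1858 CPM at P0 and at 878 and 1059 CPM at P1 (-1.03, adjusted p = 0.23). Kitl, the stem cell factor, was at 77.5 and 130 CPM at P0 and at 243 and 172 CPM at P1 (1.16, adjusted p = 0.043, short of the fold limit). Il6 and Lif, interleukin 6 family cytokines under the CPM threshold, had 11.9 and 3.03, and 4.13 and 1.41 CPM at P0, and 0 and 0.108, and 0.625 and 0.574 CPM at P1. Both were called lower (-6.99, adjusted p = 0.0066, and -2.11, adjusted p = 0.038), with calls lost without P1 replicate 1 (Lif also without P0 replicate 1 or P1 replicate 2). Cxcl2 was at 2.52 and 3.33 CPM at P0 and at 0 and 0.108 CPM at P1, 133 counts against 3 (-5.60, adjusted p = 0.0065), and its call held with each library left out. Zc3h12a, an RNase that degrades cytokine mRNAs, was at 42.5 and 36.2 CPM at P0 and at 6.13 and 6.99 CPM at P1 (-2.43 ± 0.22, adjusted p = 6.9e-05, edgeR). Ptx3, a secreted pentraxin, was at 296 and 205 CPM at P0 and at 21.4 and 19.1 CPM at P1 (-3.47 ± 0.32, adjusted p = 8.7e-05, edgeR). In MSC over Lung Ptx3 was called higher.

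Some sterol synthesis, glycolysis and cell cycle genes were called lower at P1. The summed level of 16 sterol genes was 3082 and 945 CPM at P0 and 698 and 746 CPM at P1, that of 19 glycolysis genes was 8638 and 2875 CPM at P0 and 2054 and 2255 CPM at P1, and that of 20 cell cycle genes was 2122 and 535 CPM at P0 and 563 and 514 CPM at P1. P0 replicate 2 thus lay close to both P1 libraries for these groups. The cell cycle sum was 1557 and 961 CPM at P2, 2798 and 1777 CPM at P3 and 2528.5 CPM at P4. From P2 to P4 the sterol sum was between 636 and 1382 CPM and the glycolysis sum between 2251 and 2807 CPM. Of 16 sterol genes kept 8 were called lower, of 18 glycolysis genes 5, and of 12 cell cycle genes 4, with none higher and medians of -1.57, -1.08 and -1.88. Without P0 replicate 1 the counts were 0, 1 and 0. Without P1 replicate 1 they were 0, 0 and 0, without P1 replicate 2 they were 0, 1 and 0, and without P0 replicate 2 they were 13, 9 and 10. In a fit of the compared groups alone they were 0, 0 and 0. These counts therefore depended on P0 replicate 1, on both P1 libraries and on fitting all conditions together.

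Fdps, a synthase of the sterol pathway, was at 188 and 41.1 CPM at P0 and at 21.6 and 26.3 CPM at P1 (-2.11, adjusted p = 0.024). Ldha, lactate dehydrogenase, was at 687 and 228 CPM at P0 and at 129 and 150.4 CPM at P1 (-1.56, adjusted p = 0.035). Mki67, a marker of cycling cells, was at 478 and 15.5 CPM at P0 and at 14.8 and 12.5 CPM at P1 (-4.02, adjusted p = 0.053). Mcm5, part of the helicase that opens DNA for replication, was at 42.5 and 7.36 CPM at P0 and at 3.15 and 3.59 CPM at P1 (-2.76, adjusted p = 0.025), a call lost without P0 replicate 1 and without either P1 library.

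Cell cycle inhibitors linked with senescence were not called. Cdkn2b, the p15 inhibitor, was at 52.5 and 45.4 CPM at P0 and at 106 and 94.1 CPM at P1 (1.18, adjusted p = 0.009, short of the fold limit). Cdkn2a, which encodes p16, was at 39.7 and 30.1 CPM at P0 and at 60.2 and 63.3 CPM at P1 (0.97, adjusted p = 0.10). Of the 16 senescence genes kept 3 were called, all lower. They included Cxcl1 and Gdf15, a stress cytokine (-3.40), which are secreted products and not inhibitors of the cycle. The call of Gdf15 was lost without P0 replicate 1 and without P1 replicate 1.

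Atf4 and genes of amino acid supply were lower at P1. Atf4, the factor that raises amino acid synthesis and import under stress, was at 225 and 156 CPM at P0 and at 46.2 and 52.7 CPM at P1 (-1.79 ± 0.24, adjusted p = 0.0012), with -0.30 in MSC over Lung, and its call held with each library left out. A list of 21 genes of amino acid and one-carbon metabolism was written after these values were seen. Of the 19 kept 11 were called lower, with a median of -1.56, but without P0 replicate 1 or without either P1 library only 1 was called. In a fit of the compared groups alone 2 were called. Mthfd2, a mitochondrial folate enzyme, was at 32.8 and 9.18 CPM at P0 and at 2.53 and 3.77 CPM at P1 (-2.61). Shmt2, which feeds Mthfd2, was at 141 and 39.4 CPM at P0 and at 18.8 and 23.1 CPM at P1 (-1.96).

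Atf4 pairs with C/EBP factors on the letters TGATGNAAN. Of the 19 genes of that list with a window in the RefSeq table, 5 held these letters on either strand (Asns, Chac1, Pycr1, Slc7a11 and Trib3), against 4.50% of all genes in the table. The list was written after the values were seen, so this share is a description only. Asns was not called (-1.18, adjusted p = 0.064, edgeR). Slc7a11, the cystine importer, was at 27.3 and 20.6 CPM at P0 and at 6.40 and 4.56 CPM at P1 (-1.97, adjusted p = 0.019), and Pycr1, which makes proline, was at 18.4 and 7.26 CPM at P0 and at 1.73 and 1.83 CPM at P1 (-2.71, adjusted p = 0.0071). Both calls were lost without P0 replicate 1 and without either P1 library. Both windows are shown because they are the called genes at 5 CPM with the letters (chr3:50443564-50443863 and chr11:120643699-120643998, minus strand, GRCm38.p6), with the matches in capitals. Slc7a11 holds 2 matches and Pycr1 holds 1. Of the 20 Notch targets and pathway proteins listed, 13 had a window, and Hes1, Heyl and Hey1 had none. The letters TGGGAA bound by Rbpj were in a window of 6 of these 13, against 28.3% of all genes in the table. The 6 were Hes5, Hey2, Lfng, Maml2, Maml3 and Rbpj, and Hes1, Heyl, Hey1 and Mfng were not among them.
Slc7a11: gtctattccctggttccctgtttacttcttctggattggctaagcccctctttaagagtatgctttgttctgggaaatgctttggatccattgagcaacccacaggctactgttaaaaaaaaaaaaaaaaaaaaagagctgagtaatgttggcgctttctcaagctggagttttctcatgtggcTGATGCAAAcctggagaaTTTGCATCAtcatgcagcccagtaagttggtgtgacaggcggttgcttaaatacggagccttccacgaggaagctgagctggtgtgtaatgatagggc
Pycr1: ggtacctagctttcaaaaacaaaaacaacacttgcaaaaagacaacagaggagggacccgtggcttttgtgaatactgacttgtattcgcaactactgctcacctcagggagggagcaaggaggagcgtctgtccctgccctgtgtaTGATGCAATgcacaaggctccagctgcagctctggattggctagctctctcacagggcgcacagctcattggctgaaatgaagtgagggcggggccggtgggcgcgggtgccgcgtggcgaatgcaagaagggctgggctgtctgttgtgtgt

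**Figure D3:**
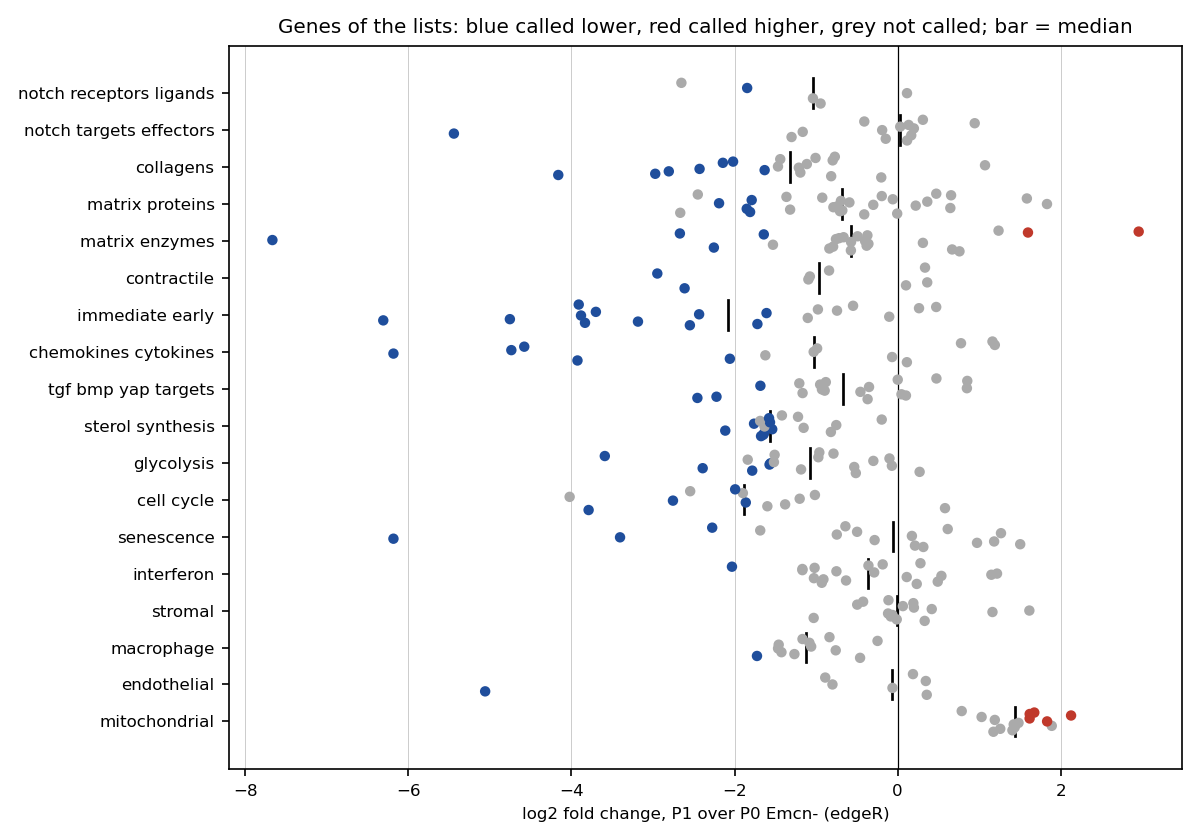
Log2 fold change of P1 over P0 for the genes kept in 18 lists (points), with the median of each list as a bar. Blue points were called lower, red points higher and grey points neither. Immediate early genes reach furthest to the left as a group, with a median of -2.08, and mitochondrial genes lie wholly to the right of 0, with a median of 1.44.

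Among genes higher at P1 with little change in MSC over Lung (a log2 fold change under 1 in size, which held for 62 of the 184), 37 reached 20 CPM in both P1 libraries and were ranked by fold change. The first of them, Cyp2f2 (ENSMUSG00000052974, chr7:27119909-27133660), a cytochrome P450 that oxidises aromatic compounds, was at 2.64 and 3.33 CPM at P0 and at 95.8 and 106 CPM at P1. The mean was 33.8-fold higher (5.27 ± 0.25, adjusted p = 1.2e-06), with 0.20 in MSC over Lung. It remained at 84.2 to 159 CPM in all libraries of P2 to P4. Cat, the catalase that removes hydrogen peroxide, was at 137 and 218 CPM at P0 and at 706 and 794 CPM at P1 (2.24 ± 0.21, adjusted p = 0.00011), with -0.13 in MSC over Lung and 490.1 to 753 CPM later. The calls of Cyp2f2 and Cat held with each library left out.

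Txnip, an inhibitor of thioredoxin and of glucose uptake, was at 149 and 524 CPM at P0 and at 1539 and 1211 CPM at P1 (2.19 ± 0.48, adjusted p = 0.014). Cavin2, a coat protein of caveolae, was at 21.1 and 76.8 CPM at P0 and at 224 and 243 CPM at P1 (2.43 ± 0.53, adjusted p = 0.014). Both calls were lost without P1 replicate 1, and that of Cavin2 also without P1 replicate 2. Lims2 and Sorbs2, adaptors of cell adhesions, rose by 2.36 and 2.27 on the log2 scale, with calls lost without P0 replicate 1 or P1 replicate 1 (Lims2 also without P1 replicate 2). Akr1c14, a hydroxysteroid reductase, was at 13.0 and 5.14 CPM at P0 and at 51.2 and 47.3 CPM at P1 (2.54, adjusted p = 0.010), a call lost without P1 replicate 1. Ano3, a member of the anoctamin family, was at 12.5 and 9.68 CPM at P0 and at 59.4 and 45.5 CPM at P1 (2.39, adjusted p = 0.0033). Dkk2, a secreted modulator of Wnt signals, was at 14.7 and 45.3 CPM at P0 and at 113 and 111 CPM at P1 (2.08, adjusted p = 0.024), the single call among 20 guidance, Wnt and IGF genes kept, lost without P0 replicate 1 and without either P1 library.

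Among genes lower at P1 with little change in MSC over Lung (95 of the 250), 61 reached 20 CPM in both P0 libraries, and the largest falls among these were in Fosb, Ccl2, Nr4a1 and Egr1, given above. Col27a1, a fibrillar collagen of cartilage, was at 29.0 and 73.1 CPM at P0 and at 5.89 and 6.35 CPM at P1 (-2.90 ± 0.45, adjusted p = 0.0025). Zfp488, a zinc finger factor, was at 37.6 and 44.9 CPM at P0 and at 5.50 and 5.99 CPM at P1 (-2.68 ± 0.32, adjusted p = 0.00051). Both calls held with each library left out. Mif, a secreted cytokine, was at 229.8 and 47.2 CPM at P0 and at 19.5 and 27.1 CPM at P1 (-2.43, adjusted p = 0.027), and summing its near-identical copies gave -1.96 (adjusted p = 0.053).

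Other genes went opposite ways in both comparisons, 40 of the 184 higher at P1 and 31 of the 250 lower. Folh1, a folate hydrolase, was at 4.73 and 6.56 CPM at P0 and at 42.1 and 47.7 CPM at P1 (3.18 ± 0.18, adjusted p = 3.9e-06), and reached 208 CPM at P4. Adcyap1r1, a neuropeptide receptor, and Cbln2, a synaptic organiser, rose by 3.11 and 3.29 on the log2 scale, and Ifi209, an interferon-inducible gene, rose by 5.07. In the other direction, Cilp, a matrix protein of cartilage, was at 30.6 and 37.2 CPM at P0 and at 0.208 and 0.0717 CPM at P1 (-7.67 ± 0.48, adjusted p = 6.7e-06), with 7.23 in MSC over Lung. Itga11, a collagen-binding integrin, was at 159.9 and 47.6 CPM at P0 and at 6.84 and 5.85 CPM at P1 (-3.88, adjusted p = 0.0019), with 5.36 in MSC over Lung.

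Alpl, the phosphatase of bone mineralisation, was at 7.18 and 11.9 CPM at P0 and at 0.922 and 1.11 CPM at P1 (-3.05 ± 0.44, adjusted p = 0.0016), the single call of 5 bone genes kept. Of these 5, 2 had a fold change above 0 and 3 below, with a median of -0.16. The summed level of the 13 bone genes listed was 2563 and 877 CPM at P0 and 1538 and 1860 CPM at P1. From P2 to P4 it was between 3070 and 5703 CPM. Ibsp, a bone matrix protein under the CPM threshold, was at 2.06 and 137 CPM at P0 and at 0.0595 and 0.143 CPM at P1, with nearly all of its P0 level in replicate 2. Of 12 adipogenic genes kept 1 was called, the factor Cebpb (155 and 105 CPM at P0, 38.2 and 41.7 CPM at P1, -1.55), and of 15 stromal genes none was called. Of 12 macrophage genes kept 1 was called, C1qa (19.0 and 26.9 CPM at P0, 3.18 and 9.36 CPM at P1). All 12 had a fold change below 0, with a median of -1.12, and 7 were called lower in MSC over Lung. Of 7 endothelial genes kept 1 was called, Cdh5 (adjusted p = 0.049, edgeR). Of these 7, 3 had a fold change above 0 and 4 below, with a median of -0.06. The call of Cdh5 was lost without P0 replicate 1 and without either P1 library, that of C1qa without either P0 library or P1 replicate 1, and that of Cebpb without P0 replicate 1. Plvap, a protein of endothelial pores under the threshold, was at 8.31 and 1.11 CPM at P0 and at 0.208 and 0.466 CPM at P1.

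Interferon-stimulated genes were mostly not called at P1, and most were called in MSC over Lung. Of the 19 kept 1 was called lower at P1, Oas2, a sensor of viral RNA (25.5 and 32.2 CPM at P0, 4.88 and 7.78 CPM at P1, -2.03, adjusted p = 0.0005). In MSC over Lung 15 were lower, and in 15 the difference between comparisons passed the test. Isg15, a ubiquitin-like modifier, was at 17.5 and 20.7 CPM at P0 and at 5.29 and 10.0 CPM at P1 (-1.17, adjusted p = 0.17), and at 189 and 59.9 CPM in Lung against 8.22 and 4.90 CPM in MSC.

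Among genes that the table names by identifier alone, ENSMUSG00000106106, annotated as ribosomal RNA, was at 27.7 and 20.6 CPM at P0 and at 73.9 and 126 CPM at P1, ENSMUSG00000107260 was at 0 CPM in both P0 libraries and at 45.5 and 115 CPM at P1, and ENSMUSG00000076036, annotated as a miRNA, was at 0.0504 and 0 CPM at P0 and at 128 and 145 CPM at P1. The first changed little in MSC over Lung and the other two were called higher there too.

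Of the mitochondrial transcripts, 5 were called higher at P1. All 15 genes kept had a fold change above 0, and the median was 1.44. Genes of the mitochondrial genome took 2.72% and 3.01% of counts at P0 and 8.00% and 5.99% at P1. mt-Nd5, a subunit of complex I, was at 1842 and 1543 CPM at P0 and at 7795 and 5443 CPM at P1 (2.13 ± 0.38, adjusted p = 0.0057), with 0.43 in MSC over Lung. mt-Nd2 rose by 1.83 and the ribosomal RNA mt-Rnr1 by 1.68 on the log2 scale. The number called was 1 without P0 replicate 1, 2 without P0 replicate 2, 1 without P1 replicate 1 and 4 without P1 replicate 2, and 1 in a fit of the compared groups alone. The nuclear RNA Malat1 moved the other way, with 3968 and 5102 CPM at P0 and 1337 and 1464 CPM at P1 (-1.54, adjusted p = 0.013), and it was also lower in MSC over Lung (-2.08). The call of Malat1 was lost without P0 replicate 2 and without either P1 library.

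Of the 184 genes higher at P1, 60 were higher in MSC over Lung too, 40 were lower and 84 were not called. Of the 250 lower at P1, 75 were lower in MSC over Lung too, 31 were higher and 144 were not called. The test of the difference between both comparisons called 606 (5.77%) and 370 (3.53%) of the genes kept. By it, 79 of the 184 and 90 of the 250 went further at P1 than in MSC over Lung. This difference holds the same P1 and P0 values by which the 184 and 250 were chosen. Passing in the direction of the call was therefore favoured in advance, and these counts are a description only.

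**Figure D4:**
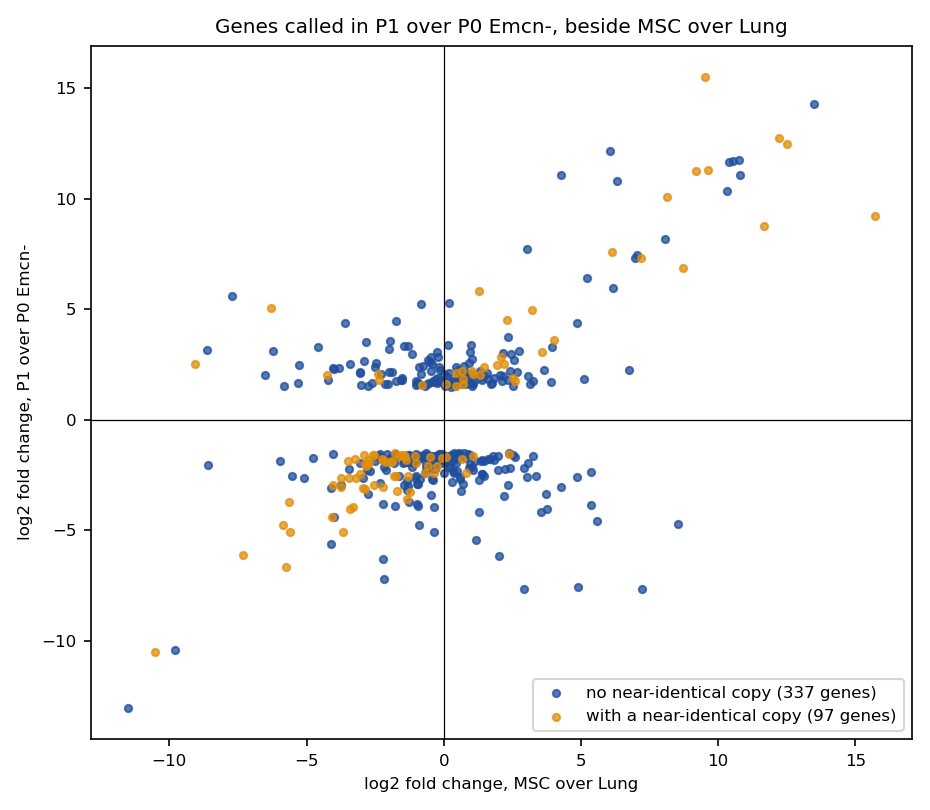
Log2 fold change at first passage (vertical) against that of MSC over Lung (horizontal) for the 434 genes called at P1. Orange points are the 97 genes with a near-identical copy elsewhere in the transcriptome and blue points the 337 without one. The points furthest to the upper right and lower left moved the same way in both comparisons.

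The genes that moved the same way in both comparisons included genes of the Y chromosome. Ddx3y, an RNA helicase, was at 44.8 and 28.9 CPM at P0 and at 0 CPM in both P1 libraries, at least 854-fold lower over the pooled counts. It was at 44.3 and 65.9 CPM in Lung and at 0.0281 and 0 CPM in MSC. Eif2s3y, a translation factor, and Kdm5d, a histone demethylase, followed it, with Kdm5d at 35.3 and 26.1 CPM at P0 and at 1.37 and 1.26 CPM at P1. Uty, the fourth Y gene listed, was at 17.5 and 13.4 CPM at P0 and at 1.04 and 2.01 CPM at P1, but at 17.9 and 42.6 CPM in MSC. Xist, the RNA of the inactive X, was at 674 and 1093 CPM at P0 and at 936 and 876 CPM at P1. P0 libraries held both Ddx3y and Xist, and P1 libraries held Xist with no count of Ddx3y. The study used mice regardless of sex. The Y genes differed between the sides along with passage and batch, so sex, passage and batch cannot be told apart here. The part of the sex of the mice in the results was not tested.

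Many other genes called the same way had near-identical copies. A copy was taken as another gene whose transcript aligned at 95% identity or more over 50% or more of the shorter transcript. Such a copy was found for 948 of the genes kept, and of these 37 (3.90%) were called higher and 60 (6.33%) lower, against 147 (1.54%) and 190 (1.99%) of the 9547 without one. Of the called genes with a copy, 54.1% of those higher and 68.3% of those lower had the same call in MSC over Lung, against 27.2% and 17.9% of those without.

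Counts of these genes moved between a gene and its copy while their sum stayed closer to level. Galnt2, a glycosyltransferase, was at 349 and 216 CPM at P0 and at 7.53 and 16.7 CPM at P1. Galnt2l, an annotated gene that overlaps it (chr8:119910841-124345722), was at 0 CPM in both P0 libraries and at 183 and 189 CPM at P1. Their sum had a log2 fold change of -0.36 (adjusted p = 0.25). In Lung, Galnt2l was at 0 and 0.784 CPM and in MSC at 203 and 263 CPM, so the same shift stood between Lung and MSC.

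Rpl17, a ribosomal protein, was at 493 and 794 CPM at P0 and at 7.76 and 9.04 CPM at P1 (-6.10, adjusted p = 3.5e-05). With its 13 copies summed the value was 0.24 ± 0.20 (adjusted p = 0.43). Rps27 and Rps7, ribosomal proteins too, went from -5.08 and -4.75 to 0.11 and -0.02. Cox6c2 and Atp5g2, which belong to the respiratory chain, had fold changes of 12.48 and -5.63 in the separate counts, and Cox6c2 had -0.21 with its copy summed, while no copy of Atp5g2 passed the criteria. Gapdh, Pgk1 and Eno1, enzymes of glycolysis, were called lower at -2.39, -3.59 and -1.78 and had -1.13, -1.27 and -1.16 with copies summed, none of which was called. Tuba1b, a tubulin, went from -1.95 to -1.12.

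Rps3a1, a protein of the small ribosomal subunit (chromosome 3), and Rps3a2, annotated as its processed pseudogene (chromosome 14), show how little separates such genes. Rps3a1 was at 749.7 and 1026 CPM at P0 and at 414 and 593 CPM at P1. Rps3a2 was at 0.126 and 0.504 CPM at P0 and at 505 and 478 CPM at P1, and their family had 0.32 (adjusted p = 0.22) when summed. Over 792 aligned bases of the reading frame the transcripts were identical at 788 (99.5%), with a longest identical run of 317 bases. Vcp, an ATPase that unfolds proteins (chromosome 4), was at 555 and 469 CPM at P0 and at 223 and 260 CPM at P1, and Vcp-rs, its processed pseudogene on chromosome X, was at 0.352 and 0.202 CPM at P0 and at 143 and 104 CPM at P1. They were identical at 2398 of 2406 aligned bases (99.7%), with a longest identical run of 794 bases, and had -0.33 (adjusted p = 0.21) when summed. Stretches of 120 bases, bases 526 to 645 of the Rps3a1 frame and 1420 to 1539 of the Vcp frame, are shown from GENCODE M21 transcripts on GRCm38 because they hold 2 and 3 of the 4 and 8 differences, with the differing bases in capitals.
Rps3a1: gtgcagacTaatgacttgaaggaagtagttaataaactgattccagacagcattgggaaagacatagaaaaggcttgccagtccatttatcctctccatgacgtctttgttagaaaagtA
Rps3a2: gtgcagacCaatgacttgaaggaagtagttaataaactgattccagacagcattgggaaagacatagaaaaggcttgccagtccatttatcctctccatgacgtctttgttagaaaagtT
Vcp: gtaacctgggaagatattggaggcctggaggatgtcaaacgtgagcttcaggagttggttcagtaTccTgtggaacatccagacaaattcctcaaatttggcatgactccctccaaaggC
Vcp-rs: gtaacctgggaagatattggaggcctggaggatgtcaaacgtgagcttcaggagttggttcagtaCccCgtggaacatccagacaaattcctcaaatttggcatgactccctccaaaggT

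**Figure D5:**
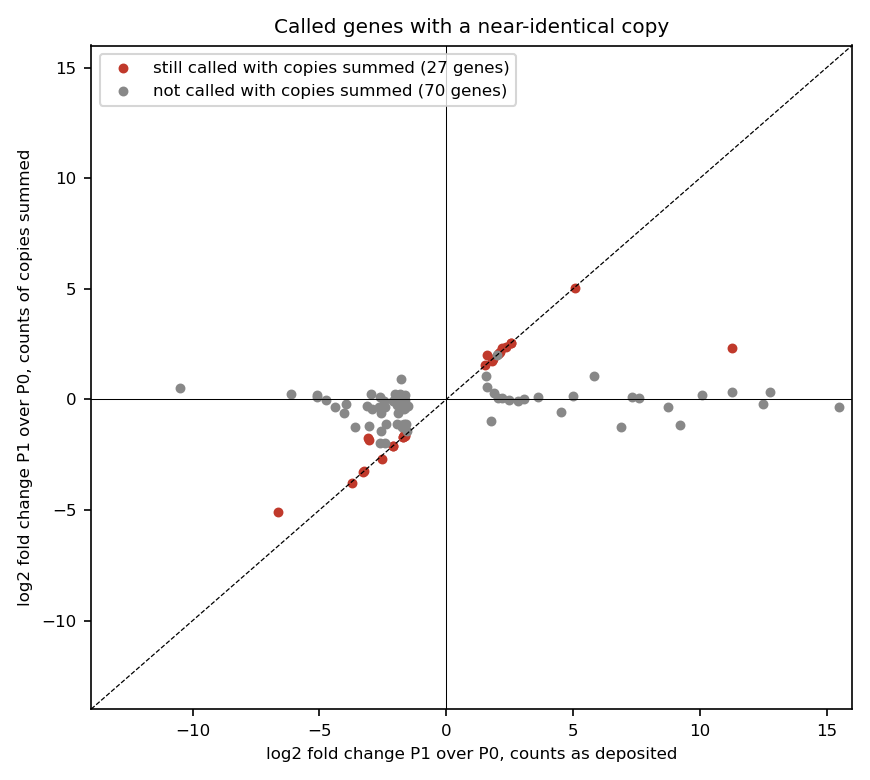
Log2 fold change of P1 over P0 for the 97 called genes with a near-identical copy, from separate counts (horizontal) and with counts of the copies summed (vertical). The dashed line marks equal values, red points were still called with copies summed (27 genes) and grey points were not (70 genes). Most grey points lie near 0 on the vertical axis.

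With copies summed, 13 of the 37 higher and 14 of the 60 lower genes with a copy kept their call. The counts of genes without a copy were left as they were. Their share that kept the call (145 of 147 and 187 of 190) was thus nearly fixed in advance and is no contrast. In all 362 genes were called in place of 434. Genes with symbols left out by the rule took 2.07% and 2.26% of counts at P0 and 4.39% and 4.39% at P1, against 2.41% and 2.09% in Lung and 3.09% and 3.37% in MSC. Of the 60 genes called higher in both comparisons, 25 were annotated as neither protein coding nor lincRNA. Among the other genes higher at P1, this held for 7 of the 84 not called in MSC over Lung and 1 of the 40 lower there. The share over all genes kept was not counted.

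Levels after P1 were read in the 5 libraries of P2 to P4, which the comparison did not use but which shared batches b and c with P1. Of the 184 genes higher at P1, 182 (98.9%) stayed above both P0 libraries in all 5, and of the 250 lower, 218 (87.2%) stayed below. Over all genes kept these shares were 15.7% (1644) above and 41.4% (4343) below. The called genes had been chosen against the same P0 libraries, so their shares are a description only. Among the named genes, Hes1 and Notch3 stood between P1 and P0 in all 5, Col1a1 and Cxcl1 stayed below both P0 libraries, and Timp3 stood above both P1 libraries. The genes lower at P1 that did not stay below P0 included Egr1, Ccn2 and Timp1.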

How the data were processed

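The counts per gene were deposited by the authors as 1 table for all libraries, made with STAR and Salmon on GRCm38 with an Ensembl annotation. How estimated counts became whole numbers is not given in the sources used here, nor whether counting used strand. Counts were tested with edgeR 4.0.16 in R 4.3.3 (quasi-likelihood, TMM factors, filterByExpr with a minimum count of 10 and total of 15, all 15 libraries, 1 coefficient for each of 8 conditions), with Benjamini-Hochberg adjustment over 19401 genes. Residual degrees of freedom were 7. CPM are counts over library totals. Genes were called at an adjusted p under 0.05 and a log2 fold change over 1.5 in size. The fit was tested on simulated data.

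Alternatives were DESeq2 1.42.0 with and without ashr 2.2.63, other filters and scalings, fewer samples, a replicate block and each library left out. Summing near-identical copies (95% identity over 50% of the shorter transcript and at least 150 bases, for 10465 genes with a transcript) was chosen after seeing the data. Genes named by size reached 20 CPM, were changed beyond the limits and ranked by fold change within 3 classes (small, same or opposite change in MSC over Lung). Others came from the gene lists or were singled out after their values were seen. The genes and lists were chosen with earlier results of these data known. Every column of values was mapped to a library by its name (0 were not). Intervals and floors cover counting error only. Results for some genes are not reported here.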

Additional observations from a re-analysis of the deposited data

How the results depend on the processing

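The main limits are 2 libraries a side, P0 replicates that differ, and passage confounded with batch. Leaving out 1 library moved the number of genes kept that were called higher at P1 from 184 to between 114 and 356, and that called lower from 250 to between 96 and 399. In MSC over Lung the number went from 1070 to between 892 and 1090, for the difference between comparisons from 976 to between 694 and 1182, and for genes with the same call in both from 135 to between 90 and 163. The highest counts at P1 came without P0 replicate 2, and the cause was not tested. A fit of only the compared groups called 135 higher and 145 lower, and 46 of the genes named lost their call in it. With no fold change limit 945 were higher, 1030 lower, 3624 were called in MSC over Lung, 1814 for the difference and 672 in both. Library totals in place of TMM factors moved the median by -0.156 (log2) and gave 148 higher and 327 lower. DESeq2 called 224 higher and 291 lower, and 150 and 180 with ashr. With copies summed 82 genes had the same call in both comparisons. A replicate block called 230 higher, 247 lower, 1093 in MSC over Lung, 1062 for the difference and 148 in both. Same-numbered P0 and P1 libraries deviated with a correlation of 0.00158 and Lung and MSC with 0.0199, so numbers were not taken to pair samples across these comparisons. Same-numbered libraries in shared batches deviated together (0.207 for P0 and Lung, 0.415 for P1 and P2, 0.355 for P1 and P3), and apart from the block the fits treat them as independent.

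Of 154 genes named, 118 were called, 38 kept their call under each alternative run and 46 with each library left out. The sign turned with copies summed for Galnt2l (-0.36), Rpl17 (0.24), Rps27 (0.11), Cox6c2 (-0.21), Vcp-rs (-0.33) and Rps3a1 (0.32), which follows from the sum. It turned for Notch2 with library totals (-0.04) and with 1 library left out (-0.06 without P0 replicate 2, to 0.28). It turned with 1 library left out also for Klf4 (-0.31 to 1.18), Hmgcs1 (-1.83 to 0.1), Pecam1 (-1.73 to 1.51), Xist (-0.12 to 0.56) and Pdgfra (-0.01 to 0.42), each without P0 replicate 1, and for Lyz2 (-1.4 to 0.39) without P1 replicate 1. For these 7 genes, none of which was called at P1, the cause was not tested.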
